A study of Homo sapiens with 3 samples.

Results

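Chromosome 7 carries the gene for the receptor MET, the gene for cytoplasmic beta-actin (ACTB) and many genes that every cell uses, and 59 of its named genes, spread over both arms, are described here across 3 RNA-seq libraries of MIAPaCa-2 cells. The genes were picked by position, but the chromosome itself was chosen on measured values, namely on the lower level of its genes in METTL3-knockdown cells than in control cells. That comparison is therefore given as a description with no test. Of the 59 genes, 57 were among the 14949 genes of the deposited table. AHR, the receptor for dioxin-like compounds, and TWIST1, a transcription factor of epithelial-mesenchymal transition, had no row and are not analysed here.

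METTL3 is the catalytic subunit of the nuclear enzyme that places N6-methyladenosine (m6A) on messenger RNA, and this mark affects the splicing, stability and translation of the transcripts that carry it. PLK1 is a kinase that cells need to enter and complete mitosis. The 57 genes were grouped here by textbook function, from the actin cytoskeleton to DNA repair, and what they share by construction is only their chromosome.

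MIAPaCa-2 is an established human pancreatic cancer cell line. The 3 groups were cells with a control short hairpin RNA (sh-CTL), cells with a hairpin against METTL3 (sh-METTL3), and sh-CTL cells that received NMS-P937, which inhibits PLK1, at 80 nM over 24 h (sh-CTL + PLK1i). All were grown in DMEM with serum. Each group held 1 library, so no difference has a replicate check and no p-value was computed. The sh-METTL3 cells were received by the authors as an existing knockdown line, and whether that line or the sh-CTL line is 1 clone is not given in the sources used here. The effect of the hairpin and any other difference between the lines therefore cannot be told apart, and no DNA was analysed here. Both comparisons use the same sh-CTL library.

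The libraries held 37449331 (sh-CTL), 46944900 (sh-METTL3) and 47727495 (sh-CTL + PLK1i) reads in listed genes. METTL3 itself, on chromosome 14, had 3378, 1781 and 4223 reads in that order, and its normalized count after knockdown came to 41.9% of the control value. The labels call the cells epithelial: the keratins KRT8, KRT18 and KRT19, the tight junction gene CLDN4 and the duct factor SOX9 were listed, whereas EPCAM, CDH1, KRT7 and PDX1 were not. The mesenchymal markers VIM and ZEB1 were listed and CDH2 and FN1 were not. In sh-CTL, sh-METTL3 and sh-CTL + PLK1i, VIM had 209893, 199813 and 267672 reads and KRT8 had 82612, 124197 and 97483. ZEB1 had 2510, 3752 and 4169. The fibroblast collagen COL1A2 had between 44101 and 44493 reads in each library and COL1A1 at most 36, while DCN, the endothelial and acinar markers and the immune markers PTPRC and CD3E were not listed, and the macrophage marker CD68 had 1505, 3499 and 2875 reads in the same order of libraries. The part of these markers in the results below was not tested.

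Levels are given as normalized read counts, which are reads scaled by the authors' factor for each library, and a change is the difference of log2(normalized count + 1) between 2 libraries. A gene is called lower or higher where this change reached 0.2. Each 95% interval is an exact (Clopper-Pearson) one for how the reads of a gene divide between 2 libraries. It covers counting error only, and says nothing of how reads shared between genes were assigned or of the spread between cultures. In bulk RNA, fewer cells with a transcript and less transcript per cell cannot be told apart.

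In sh-METTL3, 44 of the 57 members were lower than in sh-CTL by at least 0.2, against a background of 23.2% of all listed genes, and none was higher, against 23.8% of all listed genes. The median change was −0.29, with quartiles of −0.43 and −0.20, whereas the median over all listed genes was 0.00. Altogether 55 members lay below 0 (background 49.8%), and the counting interval lay wholly below 0 for 52 (background 28.2%). JAZF1 and PHKG1 were lower by 1 or more on the log2 scale (background 2.94%). These counts describe the values on which the chromosome was chosen. Members held more reads than most genes, with a median normalized count of 5270 against 906 over the table, so the count was repeated above a mean normalized count of 200. Of the 54 members above it, 41 were lower, against 20.1% of all genes above that level. For 23 members the level is uncertain, since reads may be shared with annotated pseudogenes named after them (19 members) or with a listed gene that overlaps on the same strand (7 members).

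In the PLK1 inhibitor comparison, which the choice of the chromosome did not use, the median change over the members was 0.00, and 28 of the 57 lay below 0 (background 49.4%). Only IQCE and PMPCB were lower by 0.2 or more, against 19.6% of all listed genes. The higher members were PHKG1, ST7, CAV1, CAV2, MET, BUD31 and RHEB, 7 genes against 18.4% of the table. Above a mean normalized count of 200, 2 of 54 were lower and 6 higher, against 13.6% and 12.6% of all genes. Across the 3 libraries, 52 members had their lowest normalized count in sh-METTL3, against 39.0% of all listed genes. This count needs sh-METTL3 to lie below sh-CTL, the comparison on which the chromosome was chosen, so it is a description only.

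**Figure D1:**
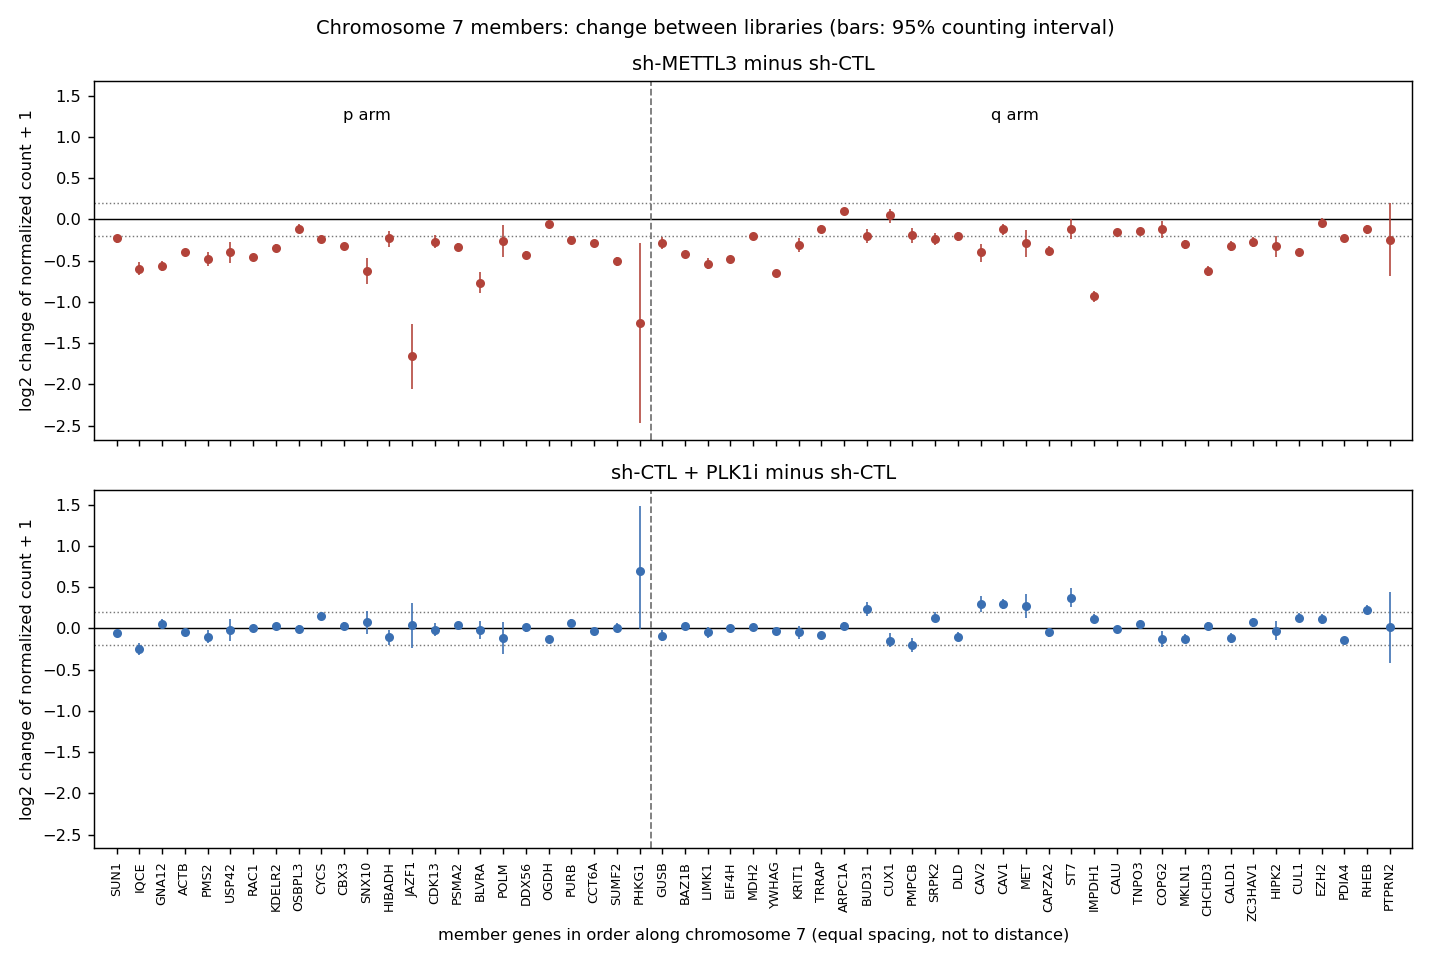
Change of each member in order along chromosome 7 (x axis, equal spacing), as the log2 difference of normalized count + 1 (y axis), for sh-METTL3 minus sh-CTL (top, red) and sh-CTL + PLK1i minus sh-CTL (bottom, blue). Bars are 95% counting intervals, dotted lines mark 0.2 in each direction and the dashed line the centromere, and 55 of 57 red points lie below 0 against 28 of 57 blue points.

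The shift ran from one end of the chromosome to the other, and was smaller on the long arm. Members started between 0.856 and 157.3 Mb (hg19), with 24 on the short arm (p) and 33 on the long arm (q). On the p arm 22 of 24 were lower in sh-METTL3 and the median was −0.37, while on the q arm 22 of 33 were lower and the median was −0.25, against 23.2% lower over all listed genes. Above a mean of 200, the other listed genes of each arm gave medians of −0.37 (151 genes, 79.5% lower) and −0.19 (314 genes, 47.8% lower). In the PLK1 inhibitor comparison the medians of the members were 0.00 on the p arm and 0.01 on the q arm.

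At the start of the p arm, SUN1, an inner nuclear membrane protein that links the nucleus to the cytoskeleton (chr7:856252-936072, plus strand), had normalized counts of 10051, 8543 and 9659 in sh-CTL, sh-METTL3 and sh-CTL + PLK1i, from 8619, 9217 and 10492 reads. Its sh-METTL3 value was the lowest of the 3, with a change of −0.23 and an interval of −0.28 to −0.19. The last p-arm member is PHKG1, a catalytic subunit of muscle phosphorylase kinase, described below for its low counts. GUSB, a lysosomal beta-glucuronidase (chr7:65425671-65447202, minus strand), is the first on the q arm and had normalized counts of 3394, 2789 and 3191 from 2911, 3009 and 3466 reads, a change of −0.28 in sh-METTL3. PTPRN2, a phosphatase-like protein of secretory vesicles near the end of the q arm (chr7:157331750-158380515, minus strand), had 84, 89 and 107 reads. Its change of −0.25 had an interval of −0.69 to 0.20, so a difference was not detectable at this depth.

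Neighbouring members were not equal. Between the 56 pairs of neighbours in the order along the chromosome, the median absolute difference of the sh-METTL3 change was 0.20 and the largest was 1.41. When all listed chromosome 7 genes averaging 50 or more normalized counts were taken in 16 stretches of 10 Mb (11 to 79 genes each), each of the 16 medians lay below 0 in sh-METTL3 and 10 were at or below −0.2. The lowest was −0.42, in the first 10 Mb with ACTB, RAC1 and PMS2, and the one nearest 0 was −0.08, between 140 and 150 Mb with EZH2 and CUL1. Every stretch from 0 to 80 Mb was at or below −0.2. The stretches from 80 to 110 Mb and from 130 to 160 Mb fell short of it, between −0.19 and −0.08. In the PLK1 inhibitor comparison the 16 medians lay between −0.09 and 0.15.

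The rest of the chromosome shifted in the same direction, with a smaller share of genes called. Over the 733 listed genes of chromosome 7 the median change in sh-METTL3 was −0.24, and 403 genes (55%) were lower. The 676 genes that are not members had a median of −0.23 and the members one of −0.29. Of these 676, 359 (53.1%) were lower and 12.4% higher, against 77.2% and 0% of the members. Over all listed genes the shares were 23.2% lower and 23.8% higher. Above a mean of 200 the shares lower were 58.1% of the other genes and 75.9% of the members. For the 632 chromosome 7 genes averaging 50 or more, members included, the median was −0.25. The other 22 chromosomes had medians between −0.13 on chromosome 18 and 0.11 on chromosome 9, and between 11.4% and 42.8% of their genes were lower, compared with 57.1% on chromosome 7. In the PLK1 inhibitor comparison chromosome 7 had a median of 0.01 and the others lay between −0.05 and 0.05. Among other chromosome 7 genes averaging 200 or more, the lowest changes in sh-METTL3 were −1.84 (SEMA3D, a secreted guidance cue), −1.76 (CREB5, a transcription factor) and −1.62 (TRG-AS1, a long non-coding RNA). At the other end lay PEG10, a retrotransposon-derived imprinted gene, at 2.51 and PPP1R9A, an actin-binding regulator of protein phosphatase, at 0.93. In all, 84 of the 733 listed genes of the chromosome (11.5%) were higher in sh-METTL3, against 23.8% of all listed genes, and none of the 84 was a member.

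**Figure D2:**
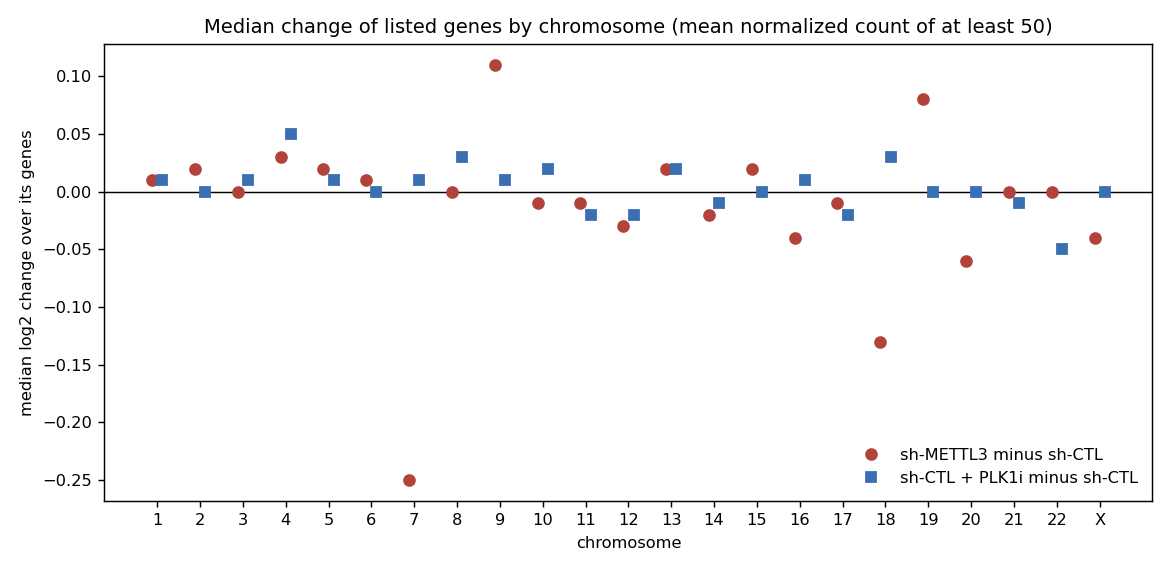
Median log2 change (y axis) of the listed genes of each chromosome (x axis) averaging 50 or more normalized counts, for sh-METTL3 (red circles) and sh-CTL + PLK1i (blue squares), each against sh-CTL. The red circle of chromosome 7 lies at −0.25 and those of the other chromosomes between −0.13 and 0.11.

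The lowest members besides PHKG1 stood well clear of counting error. JAZF1, a zinc-finger protein found with the NuA4 histone acetyltransferase (chr7:27870192-28220414, minus strand), had normalized counts of 228.6, 72.3 and 234.8 (sh-CTL, sh-METTL3, sh-CTL + PLK1i), from 196, 78 and 255 reads. The sh-METTL3 library stood apart and the others were alike. The change was −1.65 with an interval of −2.06 to −1.27, and that in the PLK1 inhibitor comparison was 0.04.

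IMPDH1, an enzyme of guanine nucleotide synthesis (chr7:128032331-128050040, minus strand), had normalized counts of 5818, 3050 and 6291 in sh-CTL, sh-METTL3 and sh-CTL + PLK1i, from 4989, 3291 and 6833 reads. The sh-METTL3 level was 52.4% of the control level, a change of −0.93 with an interval of −1.0 to −0.87. The annotation holds 10 pseudogenes named after IMPDH1, with which reads may be shared. BLVRA, which reduces biliverdin to bilirubin (chr7:43798279-43846941, plus strand), had normalized counts of 1370, 805.5 and 1354 from 1175, 869 and 1471 reads, a change of −0.77. For YWHAG, a 14-3-3 adaptor protein (chr7:75956116-75988308, minus strand), they were 33196, 21156 and 32610 from 28468, 22825 and 35422 reads, a change of −0.65. In each of these both sh-CTL libraries lay above sh-METTL3. PHKG1 (chr7:56147976-56160689, minus strand) had normalized counts of 27.99, 11.12 and 46.03 from 24, 12 and 50 reads, so its change of −1.26 had an interval of −2.47 to −0.28, and the interval in the PLK1 inhibitor comparison ran from −0.01 to 1.48.

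**Figure D3:**
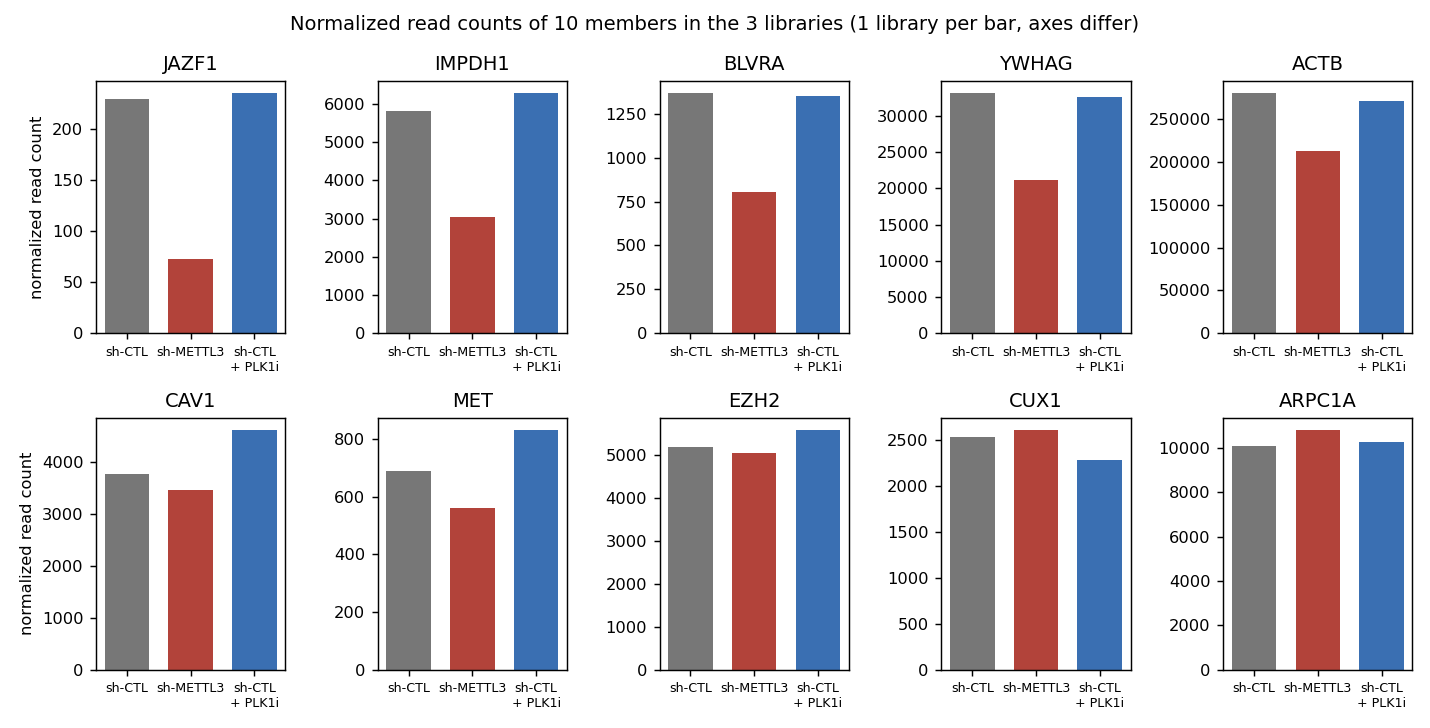
Normalized read counts (y axis, starting at 0 and different in each panel) of 10 members in the 3 libraries, 1 library per bar. The sh-METTL3 bar is lowest for JAZF1, IMPDH1, BLVRA, YWHAG, ACTB, CAV1, MET and EZH2, and not for CUX1 and ARPC1A.

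The 5 highest members in sh-METTL3 were not called in either comparison. ARPC1A, a subunit of the Arp2/3 complex that branches actin filaments (chr7:98923521-98963885, plus strand), had normalized counts of 10072, 10825 and 10292 from 8637, 11679 and 11179 reads, a change of 0.10 with an interval of 0.06 to 0.14. It overlaps another listed gene on its strand and has 4 pseudogenes named after it, so its reads are uncertain. CUX1, a homeodomain transcription factor (chr7:101459184-101927250, plus strand), had 2534, 2615 and 2286 normalized counts from 2173, 2821 and 2483 reads, and changes of 0.05 in sh-METTL3 and −0.15 with the inhibitor. EZH2, the enzyme that methylates lysine 27 of histone H3 (chr7:148504349-148581413, minus strand), had 5175, 5050 and 5583 from 4438, 5448 and 6064 reads. Its sh-METTL3 change of −0.04 had an interval of −0.09 to 0.02, so it did not differ from sh-CTL beyond counting error. OGDH, a subunit of the 2-oxoglutarate dehydrogenase of the citric acid cycle (chr7:44646171-44748665, plus strand), had 14280, 13839 and 13055 from 12246, 14931 and 14181 reads, a change of −0.05. TRRAP, a scaffold of histone acetyltransferase complexes (chr7:98475556-98648454, plus strand), had 13987, 12976 and 13252 from 11995, 13999 and 14395 reads, a change of −0.11.

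To show what the sequence at the start of these genes holds, the promoter windows of IMPDH1, among the lowest members in sh-METTL3, of ARPC1A, the highest, and of CAV1, among the highest members with the PLK1 inhibitor, are printed from RefSeq (GRCh38.p14, 250 bases before to 50 after the start, written along the gene's strand). Capitals mark matches to 6 short motifs on either strand, which may overlap. The GC box, which Sp family factors bind, was searched as GGGCGG. For the E-box of the MYC family the letters were CACGTG, and the ETS family site was written as CCGGAAG. The half-site of the respiration factor NRF1 was searched as GCGCATG. The other motifs were the box of the factor NF-Y, spelled CCAAT, and the box where the general transcription machinery binds, spelled TATAAA. The windows lie at chr7:128409933-128410232 (minus strand), chr7:99325648-99325947 (plus) and chr7:116524759-116525058 (plus).
IMPDH1: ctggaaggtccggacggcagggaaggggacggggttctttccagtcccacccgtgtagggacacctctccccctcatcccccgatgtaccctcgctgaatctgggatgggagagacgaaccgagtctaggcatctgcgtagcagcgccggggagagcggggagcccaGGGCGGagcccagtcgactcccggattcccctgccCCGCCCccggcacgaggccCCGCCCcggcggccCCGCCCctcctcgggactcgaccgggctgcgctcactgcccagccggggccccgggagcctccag
ARPC1A: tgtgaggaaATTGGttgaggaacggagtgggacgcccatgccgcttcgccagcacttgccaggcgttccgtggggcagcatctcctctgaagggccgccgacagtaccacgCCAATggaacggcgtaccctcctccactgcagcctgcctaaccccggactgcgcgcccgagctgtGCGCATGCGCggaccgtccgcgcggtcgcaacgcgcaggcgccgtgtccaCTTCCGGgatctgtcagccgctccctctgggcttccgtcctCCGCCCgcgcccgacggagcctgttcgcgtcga
CAV1: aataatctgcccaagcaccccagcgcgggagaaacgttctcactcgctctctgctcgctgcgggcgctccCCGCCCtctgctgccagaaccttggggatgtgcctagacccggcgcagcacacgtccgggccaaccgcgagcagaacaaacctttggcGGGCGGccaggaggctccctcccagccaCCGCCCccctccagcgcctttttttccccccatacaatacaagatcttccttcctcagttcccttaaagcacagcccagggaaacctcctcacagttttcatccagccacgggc

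IMPDH1 held 4 GC boxes and CAV1 held 3, while ARPC1A held 1 GC box, 2 CCAAT boxes, 1 ETS match and 2 overlapping NRF1 half-sites. Over the 44 members with a window in the table, taking the first listed start of each gene, 75% held a GC box, as did 71% of 10379 listed genes and 44.6% of all 27305 genes in the table. CCAAT was found in 43.2% of the members against 36.9% of listed genes and 35.7% of all. For TATAAA the shares were 4.55%, 5.2% and 12%. The ETS letters occurred in 27.3%, 19.9% and 10.7%, CACGTG in 6.82%, 10.2% and 7.43%, and GCGCATG in 9.09%, 7.8% and 4.67%. The median G and C content of the windows was 66.2% for members and 65.7% for listed genes. Members with a GC box had a median sh-METTL3 change of −0.30 and those without one of −0.24. No window was listed for ACTB, CCT6A, HIBADH, HIPK2, IQCE, JAZF1, KDELR2, OGDH, PTPRN2, RAC1, SUN1, TRRAP and USP42.

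Of the 6 members of the actin cytoskeleton, 5 were lower in sh-METTL3 (23.2% of all listed genes) and none passed 0.2 with the inhibitor (19.6% of all lower and 18.4% higher). ACTB, the most abundant member per kilobase of transcript (chr7:5566040-5603533, minus strand), had normalized counts of 280799, 212407 and 271780 from 240804, 229160 and 295216 reads. The sh-METTL3 library lay below both others, with a change of −0.40 and an interval of −0.41 to −0.39. ACTB is often used as a reference gene, and here it was at 75.6% of its sh-CTL level. RAC1, a small GTPase that drives lamellipodia (chr7:6414158-6443598, plus strand), had 20850, 15269 and 20849 from 17880, 16473 and 22647 reads, a change of −0.45. LIMK1, a kinase that inactivates cofilin, was at −0.54, CAPZA2, which caps filament ends, at −0.38, and CALD1 (caldesmon), which binds actin and myosin, at −0.32. ACTB and RAC1 have 12 and 9 pseudogenes named after them, so their reads may be shared.

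The 10 members of receptors, membrane and signalling had a median of −0.35 in sh-METTL3, with 8 lower (23.2% of all listed genes). With the inhibitor their median was 0.14, with 5 higher and 1 lower (18.4% and 19.6% of all). The higher ones were PHKG1, whose interval of −0.01 to 1.48 included 0, RHEB, and the neighbouring genes CAV2, CAV1 and MET. MET, the receptor of hepatocyte growth factor (chr7:116312250-116438431, plus strand), had normalized counts of 689.2, 561.7 and 831.3 from 591, 606 and 903 reads. Its lowest value was in sh-METTL3 and its highest with the inhibitor, with changes of −0.29 (interval −0.46 to −0.13) and 0.27 (0.12 to 0.42). IQCE, a protein of the ciliary base (chr7:2598606-2654367, plus strand), was the only one of the group lower in both comparisons, with 3967, 2623 and 3334 from 3402, 2830 and 3622 reads and changes of −0.60 and −0.25. GNA12, a G protein alpha subunit, was at −0.56 in sh-METTL3. KRIT1, a junction protein mutated in cerebral cavernous malformations, was at −0.31. RHEB, the GTPase that activates mTORC1, was at −0.12, short of the call, and was higher with the inhibitor at 0.22.

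MET lies beside 4 other members in a stretch of the q arm that starts at 115.9 Mb, and 4 of the 5 were higher with the PLK1 inhibitor, as were 18.4% of all listed genes and 12.6% of those above a mean of 200. CAV1, the main structural protein of caveolae (chr7:116165048-116201233, plus strand), had normalized counts of 3759, 3465 and 4619 from 3224, 3738 and 5017 reads. Its inhibitor library was the highest, with a change of 0.30 (interval 0.23 to 0.36), while the sh-METTL3 change was −0.12. CAV2, its partner in caveolae, had 1747, 1322 and 2138 normalized counts and changes of −0.40 and 0.29. ST7, a membrane protein first described as a candidate tumour suppressor (chr7:116593292-116870230, plus strand), had 1154, 1063 and 1493 from 990, 1147 and 1622 reads, and changes of −0.12 and 0.37. CAPZA2, between MET and ST7, was at −0.05 with the inhibitor. The remaining listed gene of the stretch, the antisense RNA ST7-AS1, had 44, 48 and 42 reads, with an interval that included 0 in both comparisons. How strand was used in counting is not given in the sources used here, so reads of ST7 and its antisense RNA may be mixed. Within 5 Mb on each side, 11 further genes averaging 50 or more had a median of 0.11 with the inhibitor, and 4 of them were higher and 1 lower. The run of neighbours was noticed after the values were seen.

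Among 8 members of the secretory pathway and lysosome, 5 were lower in sh-METTL3, against 23.2% of all listed genes, and none passed 0.2 with the inhibitor, against 19.6% of all lower and 18.4% higher. SNX10, a sorting nexin of endosomes, had the lowest change of the group at −0.62, with normalized counts of 859.4, 558 and 902.2. SUMF2, an endoplasmic reticulum relative of the sulfatase-modifying enzyme, was at −0.50, and KDELR2, which returns escaped proteins to the endoplasmic reticulum, at −0.34. PDIA4, a disulfide isomerase of that compartment, was at −0.23. Short of 0.2 were CALU (calumenin, a calcium-binding protein) at −0.15, COPG2, a coat subunit of Golgi vesicles, at −0.12 and OSBPL3, a lipid-binding protein, at −0.11.

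Mitochondrial and metabolic members numbered 9, of which 7 were lower in sh-METTL3 (23.2% of all listed genes), with a median of −0.23. CYCS, the electron carrier cytochrome c that also triggers apoptosis (chr7:25158275-25164879, minus strand), had normalized counts of 14244, 12069 and 15849 from 12215, 13021 and 17216 reads, with changes of −0.24 and 0.15. It has 42 pseudogenes named after it, more than any other member. CHCHD3, a subunit of the MICOS complex that shapes cristae, was at −0.63 with 7164, 4637 and 7317 normalized counts. HIBADH, an enzyme of valine breakdown, was at −0.23, and MDH2 (malate dehydrogenase) and DLD, the shared subunit of the 2-oxoacid dehydrogenases, both at −0.20. PMPCB, which cleaves the import signals of mitochondrial proteins (chr7:102937854-102972265, plus strand), had 2268, 1993 and 1968 from 1945, 2150 and 2138 reads. It was at −0.19 in sh-METTL3 and −0.20 with the inhibitor, so both libraries lay below sh-CTL, and it overlaps PSMC2 on its strand.

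Of the 9 chromatin and transcription members with a row, 6 were lower in sh-METTL3 and none passed 0.2 with the inhibitor, compared with 23.2% of all listed genes lower in sh-METTL3, and 19.6% lower and 18.4% higher with the inhibitor. After JAZF1, the lowest was BAZ1B, a bromodomain partner of ISWI remodellers, at −0.42 with 19789, 14745 and 20143 normalized counts. CBX3, a heterochromatin protein of the HP1 family, and HIPK2, a nuclear kinase active after DNA damage, were each at −0.32. CDK13, a kinase of RNA polymerase II, was at −0.27 and PURB, a single-stranded nucleic acid binding protein, at −0.25. TRRAP, EZH2 and CUX1 were the members of this group that were not called.

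All 6 RNA and translation members lay below 0 in sh-METTL3 and 5 were lower, against 49.8% and 23.2% of all listed genes. EIF4H, which helps the helicase that unwinds leader sequences for translation, was at −0.48 with 39270, 28221 and 39300 normalized counts, so the 2 sh-CTL libraries were nearly equal. DDX56, a nucleolar helicase, was at −0.43, ZC3HAV1, an antiviral protein that binds CpG-rich RNA, at −0.27, SRPK2, a kinase of splicing factors, at −0.24 and BUD31, a spliceosome protein, at −0.20. TNPO3, which imports splicing factors into the nucleus, was at −0.14. With the inhibitor BUD31 was higher at 0.23, and the others lay between 0.00 and 0.13.

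All 5 members of protein folding and turnover were lower in sh-METTL3, between −0.40 and −0.29, against 23.2% of all listed genes. CUL1, the scaffold of SCF ubiquitin ligases (chr7:148395006-148498202, plus strand), had normalized counts of 7118, 5433 and 7805 from 6104, 5862 and 8478 reads, with changes of −0.39 and 0.13. USP42, a deubiquitinase, was at −0.40, PSMA2, a ring subunit of the proteasome, at −0.33, MKLN1 (muskelin), part of a ubiquitin ligase, at −0.30 and CCT6A, a subunit of the CCT chaperonin, at −0.29. Both DNA repair members were lower as well: PMS2, a mismatch repair endonuclease subunit, was at −0.48 and POLM, a polymerase of end joining, at −0.26, with an interval of −0.46 to −0.07 for POLM. PMS2 has 11 pseudogenes named after it. With the inhibitor these 7 genes lay between −0.13 and 0.13.

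**Figure D4:**
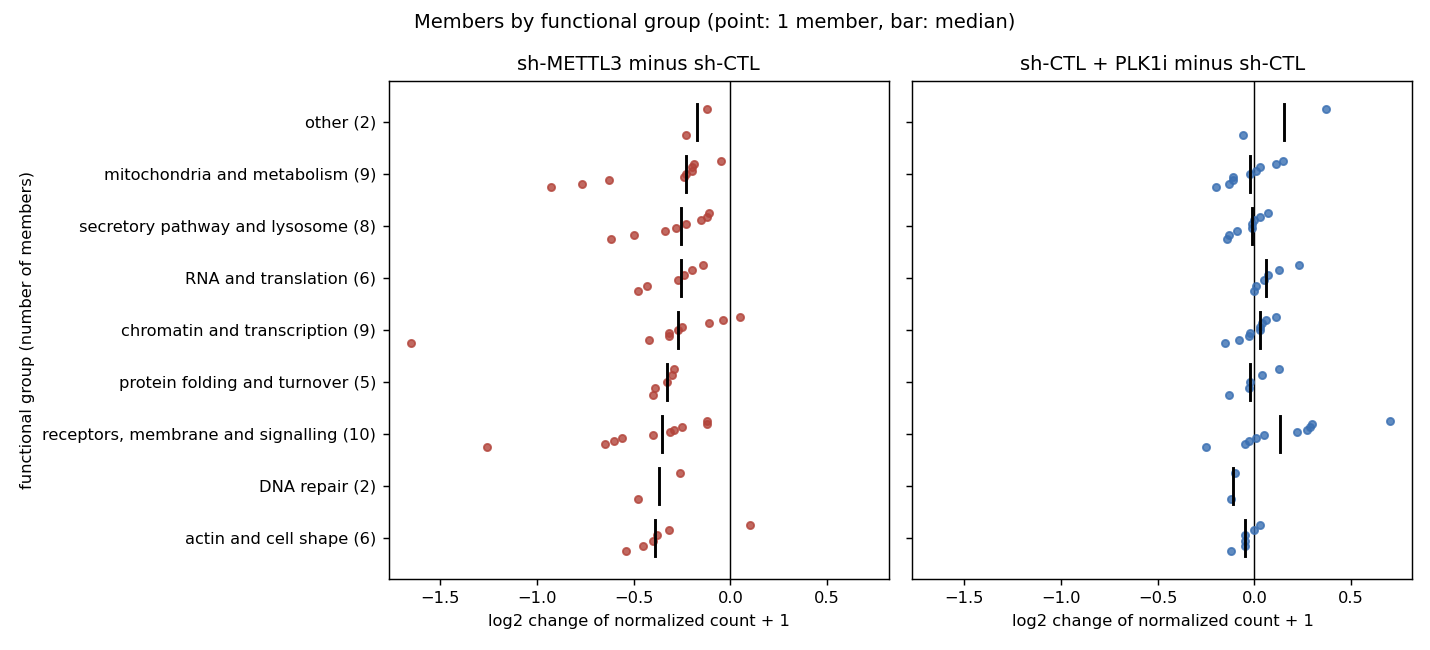
Change of each member (points, x axis, log2) by functional group (y axis, number of members in brackets), for sh-METTL3 (left, red) and sh-CTL + PLK1i (right, blue) against sh-CTL, with black bars at group medians. In sh-METTL3 the 9 medians lie between −0.39 and −0.18.

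Members were then set beside genes of the same complex or family. The list held 127 partners, of which ARPC1B, ING3 and CCM2 lie on chromosome 7 themselves, and 122 outside it were in the table. Their median change in sh-METTL3 was 0.01, and 15 (12.3%) were lower, compared with 44 of 57 members. The share lower was 23.2% over all listed genes, and 18% over genes outside chromosome 7 above a mean normalized count of 200. With the inhibitor the partners had a median of −0.02. The members' sh-METTL3 values are those on which the chromosome was chosen, so the counts of families below are a description only. In 24 of 25 families the members' median lay below that of the partners. The exception was the Arp2/3 complex, where ARPC1A was at 0.10 and 7 partners had a median of −0.02. Some gaps were small. EZH2 was at −0.04 (interval −0.09 to 0.02) against a partner median of −0.02. KRIT1 was at −0.31 and its partner PDCD10 at −0.26, with overlapping intervals (−0.39 to −0.22 and −0.35 to −0.16). In 17 families no partner lay below the lowest member. Some of these families had only 1 partner outside chromosome 7, among them cytoplasmic actin and the IMP dehydrogenases. COPG2 and its partners COPB2 and COPG1 were all at −0.12. The caveolar family was counted through CAV2 at −0.40, while CAV1 at −0.12 lay above the partners PACSIN2 (−0.37) and EHD2 (−0.22).

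The CCT chaperonin, a ring of 8 related subunits that folds actin and tubulin, shows the contrast within 1 complex. CCT6A, its chromosome 7 subunit, had normalized counts of 36691, 30041 and 35824 and a change of −0.29, whereas the 7 other subunits lay between 0.00 and 0.16 in sh-METTL3. Beta-actin and gamma-actin are nearly identical proteins. ACTG1, on chromosome 17, had 136568, 147695 and 150997 normalized counts and a change of 0.11, against −0.40 for ACTB. IMPDH2, the second IMP dehydrogenase, on chromosome 3, was at 0.17 with 11922, 13409 and 11566 normalized counts, against −0.93 for IMPDH1.

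In the proteasome alpha ring, PSMA2 was at −0.33 and 6 partners lay between −0.29 and 0.09, PSMA3 being the lowest. CAPZA1 and CAPZB, the partners of CAPZA2, were at 0.06 and 0.15. CBX1 and CBX5, relatives of CBX3, were higher in sh-METTL3, at 0.20 and 0.40. Partners of CUL1 in the SCF ligase, among them SKP1 (0.20) and RBX1 (0.08), lay between −0.09 and 0.20. In the MICOS complex the 6 partners of CHCHD3 lay between −0.20 and 0.18, and among mismatch repair genes the 6 partners of PMS2 lay between −0.30 (MLH3) and 0.17 (MSH3).

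Not every family gave this contrast. LIMK2, a relative of LIMK1 on chromosome 22, was at −0.99, lower than LIMK1, and RAC3, on chromosome 17, was at −0.72, lower than RAC1. Of 3 partners of SUN1 (−0.23), 1 lay below it, SUN2 at −0.35. Below TRRAP (−0.11) lay 2 of 7 partners, EP400 (−0.34) and KAT5 (−0.12). Of 6 partners of RHEB (−0.12), 1 lay below it, RPTOR at −0.29. Below OGDH, MDH2 and DLD lay 1 of 17 partners, PDHA1 at −0.22, close to MDH2 and DLD (both −0.20). YWHAE, a 14-3-3 protein on chromosome 17, was at −0.35 against −0.65 for YWHAG. Of the caveolar partners, PACSIN2 was at −0.37 and EHD2 at −0.22. PDCD10, which binds in the same complex as KRIT1, was at −0.26, and CCM2, also of that complex and itself on chromosome 7, was at −0.34. For EZH2, which was not called, the 6 other Polycomb repressive complex 2 genes lay between −0.17 (EZH1) and 0.47 (JARID2).

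**Figure D5:**
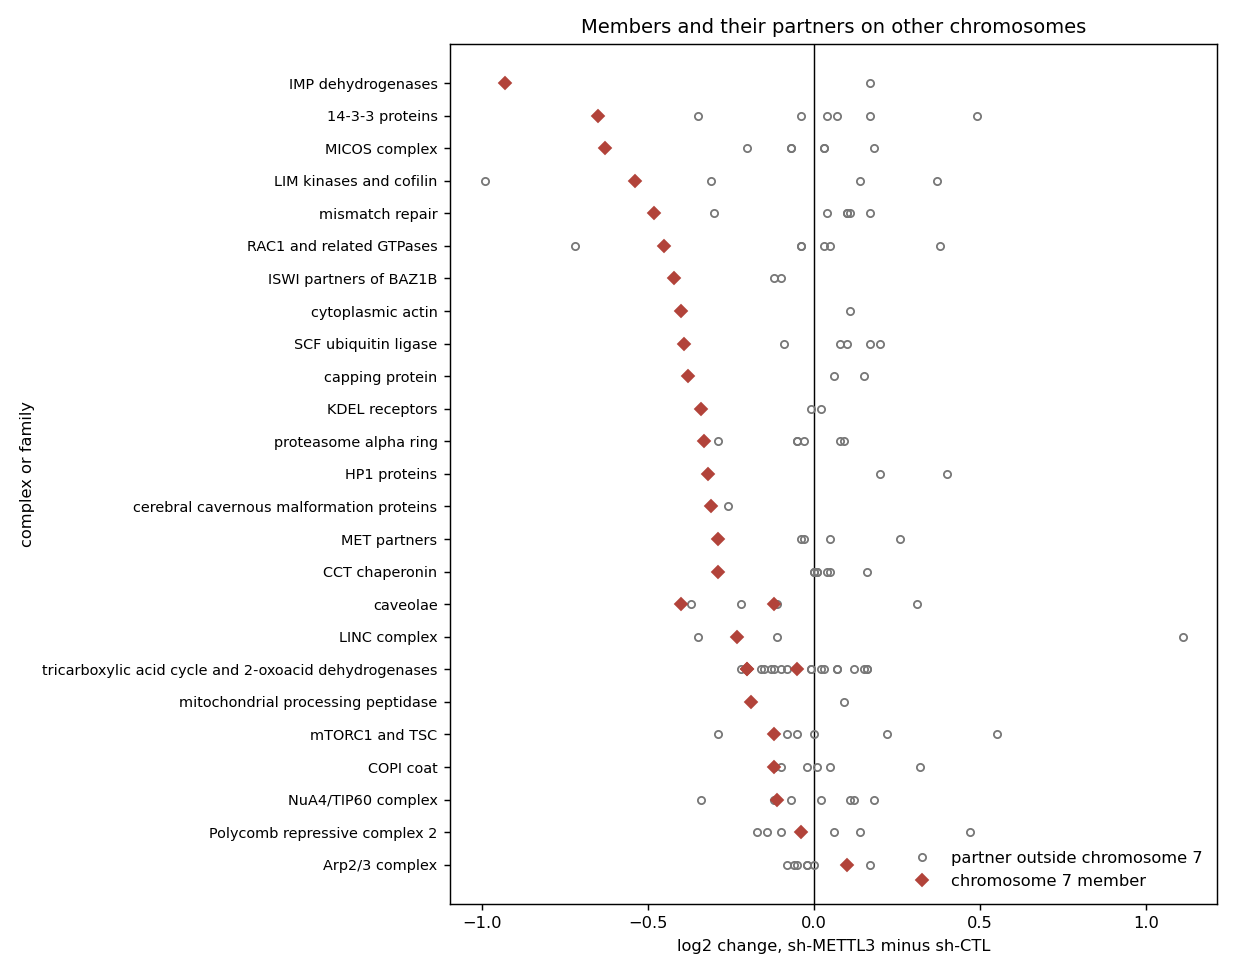
Log2 change in sh-METTL3 against sh-CTL (x axis) of members (red diamonds) and of their partners on other chromosomes (open circles), by complex or family (y axis, ordered by the members' median). The members' median lies left of the partners' median in 24 of 25 families, the Arp2/3 complex at the bottom being the exception.

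The letters GGACT, the commonest form of the sequence in which m6A is placed, were counted in the sense strand of 1 annotated transcript per gene. At least 1 match was present in 53 of the 57 members (93%) and in 87.5% of 14789 listed genes with such a transcript. The median density was 0.978 per kb in members and 0.922 per kb in listed genes. The 28 members above the median density had a median sh-METTL3 change of −0.29 and the 29 others one of −0.31. A match is not a methylated site, and m6A itself was not measured in these libraries.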

How the data were processed

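RNA-seq of 3 MIAPaCa-2 libraries was analysed, 1 per group, grouped by sample title. ISOGEN was used for extraction and a stranded mRNA kit for the libraries. Expression was deposited as log2 values in 1 table. The submitters' processing notes name FastQC 0.11.9, STAR 2.7.10, RSEM 1.3.3 and hg19, while the scaling, the log offset and the filter on low genes were not given in the sources used here. From the values, log2 of a scaled read count plus 4 was found: after undoing it, 1 read was worth 1.17, 0.927 and 0.921 in sh-CTL, sh-METTL3 and sh-CTL + PLK1i, and 100% of the nonzero values under 2000 reads came within 0.1 of whole reads. Changes used a pseudocount of 1, which understates those of low genes. With 1 library per group no count model was run. Positions came from GENCODE 44 on GRCh37, where 14858 of 14949 gene identifiers were found. Named genes were METTL3, the first and last member of each arm, the 5 lowest and 5 highest members in sh-METTL3, the 3 lowest and 3 highest with the inhibitor, preset members of known role, family partners and the 3 lowest and 3 highest other chromosome 7 genes averaging 200 or more normalized counts; items withheld from this text are not reported here. Members, lists and rules were chosen with earlier results of these data known. Read recovery and intervals were tested on simulated counts that held counting error only. That test does not cover how reads shared between genes were assigned. Scripts used Python 3.11.15, numpy 2.4.6, pandas 2.3.3 and scipy 1.17.1.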

Additional observations from a re-analysis of the deposited data

How the results depend on the processing

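The medians and counts were recomputed under 11 alternatives, covering the pseudocount (0.5 and 4), size factors (median of ratios over all genes or over genes outside chromosome 7, upper quartile, total reads), filters (mean normalized count of at least 50 or 200), removal of a trend with G and C content and transcript length, leaving out the 23 members that may share reads with pseudogenes or overlapping genes, and the mean in place of the median. The arm medians, the partners and the count of members lowest in sh-METTL3 were added after seeing the data. No called value changed sign. The members' median in sh-METTL3 lay between −0.36 and −0.27, the value of −0.36 being the mean, and on the p arm the mean was −0.46 against a median of −0.37. With the inhibitor the members' median lay between −0.02 and 0.00, and the mean was 0.02. The chromosome 7 median lay between −0.26 and −0.22 in sh-METTL3, and the mean was −0.21. Among the 34 members not flagged for shared reads, 26 were lower in sh-METTL3 and 1 was lower with the inhibitor. In sh-METTL3, 31 of them had their lowest count. These counts are smaller because fewer genes were counted. Pseudogenes under other names and overlapping genes without a row were not screened. Scaling moved the median of all genes by at most 0.02. Depth limits PHKG1 and PTPRN2 most, and without replicates the spread between cultures is unknown.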
